A study of Mus musculus with 6 samples.

Results

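Chemokines are small secreted proteins that direct the movement of leukocytes, and the genes described here are those that place lymphocytes within lymphoid organs. They are 5 ligands (Ccl19, Ccl21a, Cxcl13, Cxcl12 and Ccl5) and 5 receptors (Ccr7, Ccr9, Cxcr3, Cxcr4 and Cxcr5), taken by name from the 40808 genes of a count table of mouse spleen. All 10 were in the table. RNA came from leukaemia cells of the spleen in mice that had been given a bone marrow transplant, per the labels' protocols. There were 3 libraries without Dox (replicates 4, 5 and 6) and 3 libraries with Dox (replicates 10, 11 and 12). The study's title places the series in the control of the receptor NOTCH by UVRAG, ITCH and the ESCRT machinery, but the labels name no genotype, transgene or promoter, no Dox dose or duration, and no strain, age or sex of donor or recipient. The cells that the recipient itself contributed to these spleens are not described. The labels do not say that replicates were separate animals, so the p-values measure the spread between these libraries, which may be technical.

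In the spleen, stromal cells of the white pulp release these ligands to sort lymphocytes into zones. CCL19 and CCL21 hold T cells and dendritic cells, which carry CCR7, in the T cell zone, and CXCL13 draws B cells, which carry CXCR5, into follicles. CXCL12 binds CXCR4 on most leukocytes and retains progenitors in the marrow, CCL5 is made mainly by activated T cells and NK cells, CXCR3 marks effector lymphocytes, and CCR9, the receptor of CCL25, is carried by developing T cells of the thymus and by T cells that home to the gut.

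Ccl19 (Entrez gene 24047) and Ccl21a (18829) lie next to each other on mouse chromosome 4 in GRCm38, the build named in the submitters' processing notes. Ccl19 is at chr4:42754525-42756365 and Ccl21a at chr4:42772860-42773991, both on the minus strand, with 16494 bases between them, in the RefSeq annotation of GRCm38.p6. The same region of chromosome 4 holds near-identical copies of Ccl21a, and this bears on how its reads could be counted. Over the 402 coding bases, Ccl21a and the copy Ccl21b differed at 2 positions in the GENCODE M21 transcripts of the same build, T84A and C194T, counted from 1 at the first coding base with the base of Ccl21a given first. The stretches around both positions are shown with the differing base in capitals, coding bases 54 to 114 and then 164 to 224.
Ccl21a: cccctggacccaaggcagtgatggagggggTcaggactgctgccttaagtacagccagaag
Ccl21b: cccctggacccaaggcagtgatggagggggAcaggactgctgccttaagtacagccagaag
Ccl21a: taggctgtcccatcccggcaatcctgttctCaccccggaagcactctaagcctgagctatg
Ccl21b: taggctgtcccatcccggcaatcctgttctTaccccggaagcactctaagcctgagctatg
After the stop codon, where reads of a 3′ end library fall, Ccl21a and the copy Gm13304 differed at 3 of 393 bases. Raw counts of Ccl21b were 377, 648 and 348 with Dox (replicates 10, 11 and 12), and those of Gm13304 were 365, 649 and 343. The copies Ccl21d and Gm10591 had counts within 1 read of Gm13304 in every library. Ccl21a itself had 1611, 1860 and 2042 counts with Dox. The copies therefore carried nearly the same numbers as each other but not as Ccl21a. How reads that fit several copies were assigned is not given in the sources used here, so the level of Ccl21a is uncertain.

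Upstream sequence is shown for Cxcl13, because it was the only gene of the set with matches to both a TATA box (TATAAA) and the core of the motif bound by RBPJ, the DNA-binding partner of NOTCH (TGGGAA), and for Ccl21a, because of its near-identical copies. The bases are those before the outermost start in RefSeq and GENCODE (build GRCm38.p6), at chr5:95956689-95956938 (plus strand) and chr4:42773994-42774241 (minus strand), with motif matches in capitals.
Cxcl13: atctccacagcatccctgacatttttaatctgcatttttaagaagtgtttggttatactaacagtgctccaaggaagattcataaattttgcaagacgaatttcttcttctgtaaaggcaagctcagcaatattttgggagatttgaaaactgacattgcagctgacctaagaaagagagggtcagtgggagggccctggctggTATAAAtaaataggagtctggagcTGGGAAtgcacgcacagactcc
Ccl21a: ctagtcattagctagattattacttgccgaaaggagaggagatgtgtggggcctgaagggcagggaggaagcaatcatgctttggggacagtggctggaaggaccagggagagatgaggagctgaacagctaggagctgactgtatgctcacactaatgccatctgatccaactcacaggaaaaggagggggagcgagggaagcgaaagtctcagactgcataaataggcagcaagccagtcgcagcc
Among the 7 genes with an entry in the RefSeq promoter table, TATAAA was found on either strand within 250 bases upstream in Cxcl13 (position -46 from the RefSeq start) and Cxcr4 (position -30, where the overlapping match on the minus strand begins at -32). TGGGAA was found in Cxcl13 (position -22) and Cxcl12 (position -170). Of 27025 genes with such a window, 13.0% held TATAAA and 21.5% held TGGGAA on either strand. The kappa B motif, found in 3.75% of windows, was in none of the 7. These matches describe letters only. Ccl5, Ccr7 and Cxcr5 had no entry.

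Total counts ran from 5541486 to 7729988 without Dox and from 6498193 to 8725767 with Dox, and 3 counts in a library, the detection floor used here, corresponded to 0.309 to 0.608 normalized CPM. Normalized CPM are counts of a gene divided by the library total of tested genes, with TMM scaling, on the usual CPM scale. They are used as levels of a gene across libraries, and levels of different genes are not ranked. The libraries with Dox varied more among themselves, with a common biological coefficient of variation of 0.515 against 0.190 without Dox. Sex-linked expression followed the groups: 4 Y-linked genes summed to 545 to 801 counts in the libraries without Dox and 0 in each with Dox, and Xist, transcribed from the inactive X, ran from 193 to 324 counts and from 3347 to 5669 counts. Dox and sex-linked differences therefore cannot be told apart for any gene below. In RNA of bulk samples such as these, fewer cells of a type and less RNA per cell cannot be told apart either.

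The 5 ligands were all higher with Dox, and the receptors split. Ccr7 and Cxcr5 were higher, Ccr9 and Cxcr4 were lower, and Cxcr3 was too low to test. In the comparison across all genes (edgeR quasi-likelihood test, Benjamini-Hochberg adjusted p under 0.05), 7 of the 9 tested genes were called higher with Dox, where 23.6% of all 14110 tested genes were, and 2 were called lower, where 22.1% were. With scaling by library size alone, 4257 of all tested genes were called higher and 2359 lower, in place of 3324 and 3114. In either direction 45.6% of all tested genes were called. Normalized CPM of the groups did not overlap in any of the 9, as was the case for 59.6% of all tested genes. The 9 are not the whole set. The filter on low counts sets a cutoff that is scaled by library size. Ccl19, Ccl21a, Ccl5 and Cxcr5 fell short of it in at least 1 library without Dox and passed through the libraries with Dox. These counts therefore describe the genes and support nothing further.

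**Figure D1:**
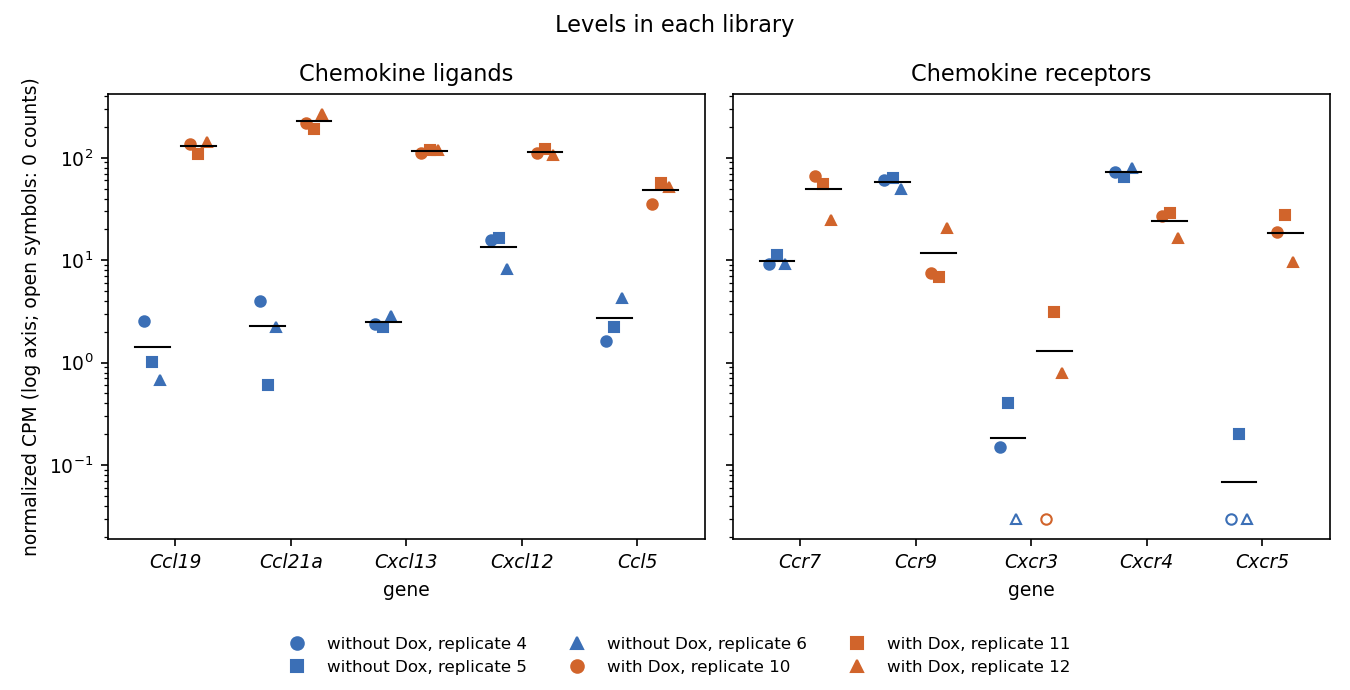
Normalized CPM (log axis) of the 5 ligands and 5 receptors in each of the 6 libraries, with blue symbols without Dox, orange symbols with Dox and a black bar at each group mean; open symbols, placed at the foot of the axis, are libraries with 0 counts. All ligands sat higher with Dox, while Ccr9 and Cxcr4 sat lower, and replicate 12 lay apart from replicates 10 and 11 for several receptors.

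Ccl19, which signals through CCR7, gave 17, 5 and 4 reads in replicates 4, 5 and 6, which were without Dox, against 1008, 1068 and 1070 reads in replicates 10, 11 and 12, which were with Dox. These correspond to 2.54, 1.01 and 0.68 CPM against 137, 110 and 141 CPM. The libraries with Dox lay close together, and those without Dox had from 4 to 17 reads beside the floor of 3. Ccl19 rose by 6.45 ± 0.38 (SE) on the log2 scale (edgeR, adjusted p = 2.4e-06). Without replicate 4 of the group without Dox, the highest of the 3, the log2 fold change was 7.21.

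Ccl21a, the second CCR7 ligand, had 27, 3 and 13 counts without Dox against 1611, 1860 and 2042 counts with Dox. Its level went from 2.28 ± 1.71 to 227 ± 39 CPM (SD, n = 3 each). No library without Dox reached 5 CPM, and none with Dox was under 191 CPM. The log2 fold change was 6.56 ± 0.43 (SE) (edgeR, adjusted p = 3.39e-06) with all libraries, and 7.23 once replicate 4 was left out. Summing Ccl21a with its 4 copies into 1 gene, an alternative chosen after seeing the data, gave 6.90. If reads that fit several copies were counted once for each copy, this sum counts them repeatedly, and it is no surer than the value of Ccl21a.

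Cxcl13, the CXCR5 ligand of B cell follicles, had the narrowest spread of the 5 ligands in both groups. It was at 2.39, 2.23 and 2.88 CPM without Dox against 110, 118 and 118 CPM with Dox. The coefficient of variation was 13.6% for the libraries without Dox and 3.99% for those with Dox, and no values overlapped. The log2 fold change was 5.52 ± 0.23 (SE) (edgeR, adjusted p = 5.37e-07).

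Cxcl12, the CXCR4 ligand, had 106, 82 and 48 reads without Dox. It was at 15.8, 16.6 and 8.14 CPM without Dox against 112, 123 and 107 CPM with Dox. Every library with Dox was above every library without, and the rise of 3.08 ± 0.28 (SE) on the log2 scale was the smallest among the 5 ligands (edgeR, adjusted p = 1.99e-05). Ccl5, the lymphocyte-derived ligand of CCR1 and CCR3 among others, was at 1.64, 2.23 and 4.24 CPM without Dox against 35.5, 56.7 and 52.3 CPM with Dox. Its log2 fold change was 4.15 ± 0.40 (SE) (edgeR, adjusted p = 3.02e-05), with replicate 10 the lowest of the libraries with Dox.

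Ccr7, the receptor of CCL19 and CCL21, was at 9.10, 11.4 and 9.15 CPM without Dox against 66.3, 56.0 and 24.9 CPM with Dox. Replicate 12 was lower than the other libraries with Dox but still above all libraries without. The log2 fold change was 2.32 ± 0.37 (SE) (edgeR, adjusted p = 0.000677). Cxcr5, the CXCL13 receptor of follicular B cells, had 0, 1 and 0 counts without Dox against 137, 267 and 73 counts with Dox. The ratio of scaled counts was 339 with Dox over without, with an exact counting interval (95%, counting error only) of 60.6 to 13400. The adjusted p was 7.22e-05 (edgeR), or 0.00054 without replicate 5, which held the single read. Leaving out replicate 5 moved the fitted fold of Cxcr5 4.44 times, and leaving out replicate 4 moved that of Cxcr5 1.51 times. Its lowest level with Dox, 9.62 CPM, was again in replicate 12. The 3′ end of Cxcr5 overlaps that of Bcl9l on the opposite strand, and whether counting used strand is not given in the sources used here. Bcl9l had 168, 202 and 191 counts in replicates 4, 5 and 6, where Cxcr5 reached at most 1 count. In replicates 10, 11 and 12 Bcl9l had 732, 638 and 162 counts, lowest in the replicate in which Cxcr5 was lowest among the libraries with Dox. The part of Bcl9l reads in the counts of Cxcr5 was not tested.

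Ccr9, the receptor of CCL25, was at 60.1, 63.6 and 49.8 CPM without Dox against 7.49, 6.79 and 20.7 CPM with Dox. Replicates 10 and 11 were close to each other, and replicate 12 was the highest with Dox, though under all libraries without. Ccr9 fell by 2.32 ± 0.41 (SE) on the log2 scale (edgeR, adjusted p = 0.00128), and by 3.04 without replicate 12. Cxcr4, the receptor of CXCL12, was at 73.4, 65.5 and 79.2 CPM without Dox against 27.1, 28.7 and 16.3 CPM with Dox. It fell by 1.59 ± 0.25 (SE) on the log2 scale (edgeR, adjusted p = 0.000597), and replicate 12 was the lowest library. Cxcr3, the receptor of the interferon-induced chemokines, had 1, 2 and 0 counts without Dox against 0, 30 and 6 with Dox. The groups overlapped, most reads came from replicate 11, and the gene did not pass the filter on low counts. Its ratio of scaled counts was 8.54 with a counting interval of 2.70 to 43.3, which leaves out the spread between libraries.

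Set side by side as ligand and receptor, the genes did not all move in the same direction. Ccl19, Ccl21a and their receptor Ccr7 rose, and so did Cxcl13 and its receptor Cxcr5. Cxcl12 rose while its receptor Cxcr4 fell. Ccl25, the ligand of CCR9, rose by 1.68 ± 0.39 (SE) on the log2 scale, from 4.53 ± 1.14 to 14.6 ± 0.47 CPM (SD, n = 3 each; edgeR, adjusted p = 0.00588), while Ccr9 fell. For the remaining receptor, Cxcr3, the ligand gene Cxcl9 rose by 1.34 ± 0.28 (SE) (edgeR, adjusted p = 0.00368), with 92.5 CPM in replicate 12 against 44.1 and 54.2 CPM in the other libraries with Dox. Cxcl10 was 4.45 ± 2.32 and 6.44 ± 0.96 CPM (SD, n = 3 each), a difference that did not pass the test (edgeR, adjusted p = 0.475). Cxcl11 had 8, 3 and 9 counts without Dox against 0 in each library with Dox, at least 2.99-fold lower against the floor of 3 counts per library, and was not tested.

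Ccl5 binds receptors outside the set. Ccr3 was at 11.1 ± 3.3 CPM without Dox against 14.3 ± 0.54 CPM with Dox (SD, n = 3 each; edgeR, adjusted p = 0.406). Ccr1 was at 1.21 ± 1.03 and 4.77 ± 1.32 CPM (SD, n = 3 each; edgeR, adjusted p = 0.107). Neither receptor passed the test. Among atypical receptors, which take up chemokines without activating G proteins, Ackr3, which binds CXCL12, was at 5.86 ± 1.08 and 5.68 ± 3.99 CPM (SD, n = 3 each; edgeR, adjusted p = 0.957), and Ackr4, which binds CCL19, CCL21 and CCL25, had at most 8 counts in any library and was not tested. Ackr2, which binds CCL5 among other CC chemokines, had 1, 0 and 2 counts without Dox against 50, 64 and 3 with Dox and was not tested. Replicate 12 was within 1 read of replicate 6.

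The other chemokines, receptors and atypical receptors were taken from lists of 55 genes, of which 54 were in the table and 27 were tested. Of the 27, 10 were called higher with Dox, 3 lower and 14 not called, where 23.6% of all tested genes were called higher and 22.1% lower. Their median log2 fold change was 0.82, beside 0.07 over all tested genes. Those called higher were the chemokines Ccl21b, Ccl25, Ppbp, Pf4 and Cxcl9 and the receptors Ccr2, Cxcr2, Xcr1, Cx3cr1 and Gpr183. Of these, Ccl21b, Ccr2, Xcr1 and Gpr183 passed the filter on low counts through the libraries with Dox. Ccl8 and Ccl24, called lower, passed it through the libraries without Dox. The counts called therefore describe the genes and support nothing further. Ccr2 and Cx3cr1, carried by monocytes, rose by 4.37 ± 0.45 and 3.91 ± 0.42 (SE) on the log2 scale (edgeR, adjusted p = 4.7e-05 and 6.01e-05), and leaving out replicate 5, the highest of its group for Ccr2, raised the fold change of Ccr2 1.55 times. Cxcr2, the main neutrophil chemokine receptor, rose by 3.11 ± 0.36 (SE) and Gpr183, an oxysterol receptor that positions B cells, by 3.30 ± 0.57 (SE). Xcr1, a marker of cross-presenting dendritic cells, rose by 2.84 ± 0.60 (SE). Ccl21b, whose level is uncertain as that of Ccl21a is, had a log2 fold change of 6.68 ± 0.43 (SE). Ccr6, a receptor of B cells and some T cells, had 0 counts in each library without Dox and 45, 3 and 65 with Dox, at least 9.59-fold higher against the floor, and was not tested.

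The called falls were Ccl6, Ccl8 and Ccl24. Ccl6 fell from 53.8 ± 17.5 to 5.94 ± 2.12 CPM (SD, n = 3 each; edgeR, adjusted p = 9.89e-05). Ccl24, an eosinophil attractant, had 71, 68 and 103 counts without Dox against 10, 0 and 0 with Dox, so that its fitted fold change rested on replicate 10 (log2 fold change -4.97 with it and -9.62 without it, and -4.35 without replicate 11). Ccl8 had 116, 107 and 109 counts without Dox against 1, 0 and 0 with Dox, a ratio of 467 without Dox over with Dox (exact counting interval 83.2 to 18500; edgeR, adjusted p = 1.85e-05, or 0.000133 without replicate 10, which held the single read and whose removal moved the fitted fold 3.36 times). Among those not called were the chemokines Ccl2, Ccl9, Ccl12, Cxcl2, Cxcl10, Cxcl16 and Xcl1 and the receptors Ccr1, Ccr3, Ccr4, Ccr10, Ackr3 and Ccrl2. Ccr4 had an adjusted p of 0.0609 (edgeR, log2 fold change -1.79), and of 0.00149 without replicate 12 of the group with Dox (log2 fold change -3.06).

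**Figure D2:**
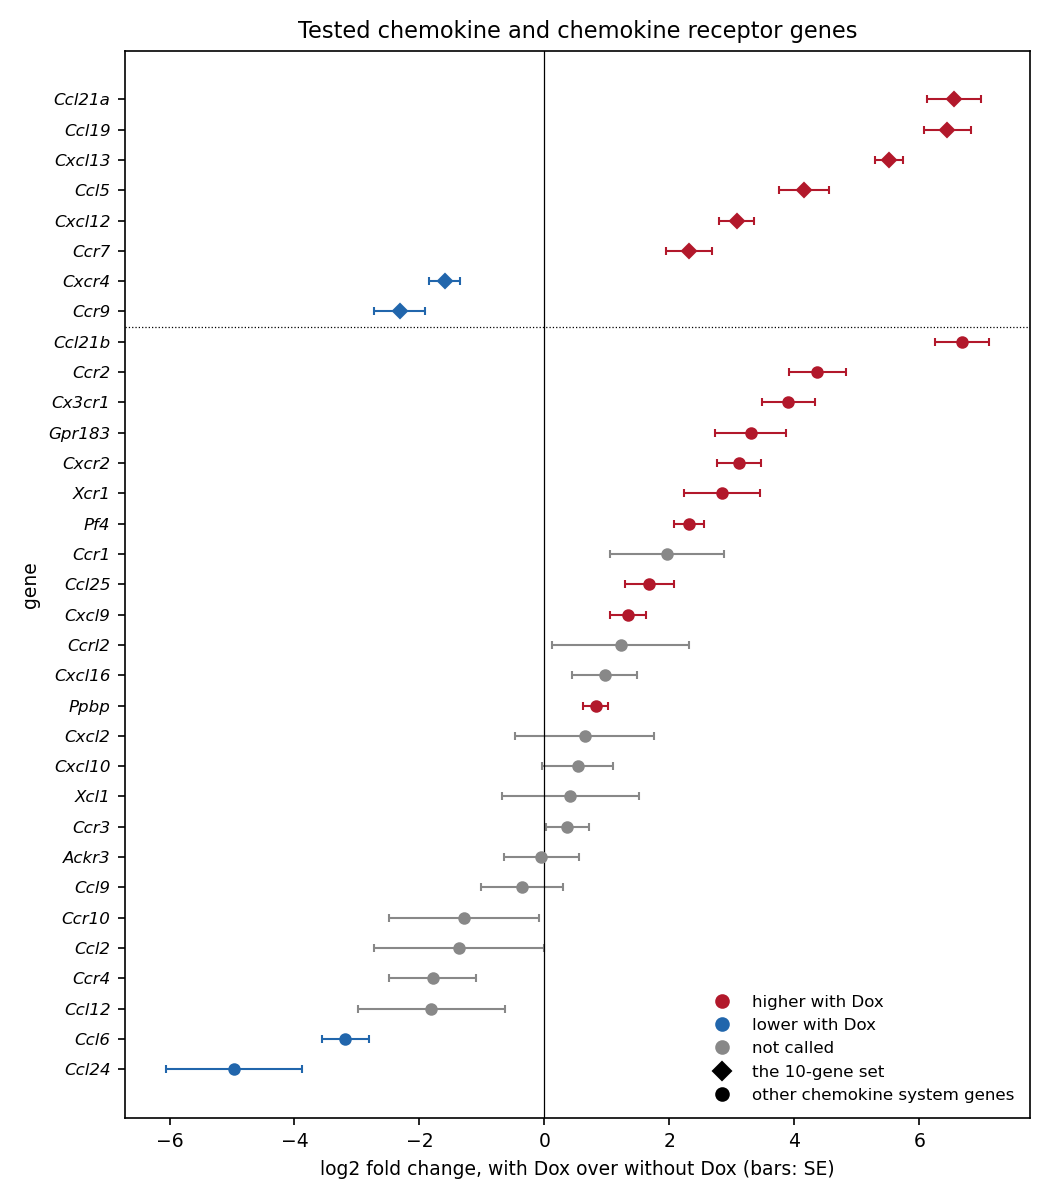
Log2 fold change with Dox over without Dox (horizontal axis, bars are SE) of the tested genes of the set (diamonds, above the dotted line) and of other chemokine, receptor and atypical receptor genes tested (circles), coloured by call; Cxcr5 and Ccl8 are left out because a group with at most 1 read in any library gives no stable fitted value. The ligands of the set spanned 3.08 to 6.56, and Cxcr4 and Ccr9 lay at -1.59 and -2.32.

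Some genes of a cluster differed in direction, while Ccl19 and Ccl21a, next to each other, both rose. Ccl5 (chr11:83525778-83530518, minus strand) lies in a cluster of CC chemokine genes with Ccl6 and Ccl9. Ccl5 rose while Ccl6 (chr11:83587886-83593087) fell, and Ccl9, between them (chr11:83572917-83578636), was at 5.62 ± 3.68 and 4.37 ± 1.62 CPM (SD, n = 3 each; edgeR, adjusted p = 0.682). Ccr9 (chr9:123767211-123783457, plus strand) lies near the receptor genes Xcr1 (chr9:123852315-123862029) and Ccr2 (chr9:124101918-124109140), which rose while Ccr9 fell. Between Ccr9 and Ccr2 also lie Ccr1 and Ccr3, which were not called, and Cxcr6 and Ccr1l1, which were not tested. These positions are from RefSeq on GRCm38.p6.

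Chemokine receptors signal through Gi proteins, are switched off by GRK kinases and arrestins, and drive movement through DOCK2 and the RAC GTPases. Of 34 genes of this machinery, 31 were tested, and 13 were called higher with Dox and 7 lower. Of all tested genes, 23.6% were called higher and 22.1% lower, so the part called lower was near that of all genes. The median over the 31 was 0.52 on the log2 scale, beside 0.07 over all tested genes. These counts describe the genes and support nothing further. The calls with the smallest adjusted p among those higher were Plcb2 (2.63 ± 0.23 (SE) on the log2 scale), the receptor kinase gene Grk3 (2.63 ± 0.28), Rgs18 (2.89 ± 0.32), a G protein regulator, and Dock2 (1.53 ± 0.21), with adjusted p from 1.68e-05 to 0.000308 (edgeR). Among those lower they were Rac1 (-1.89 ± 0.16), Rgs10 (-2.21 ± 0.20), Rap1a (-1.82 ± 0.17), which acts on integrins, and the G protein beta subunit gene Gnb1 (-1.56 ± 0.17), with adjusted p from 1.43e-05 to 6.57e-05 (edgeR).

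Markers of the cells that make or carry these proteins moved with the groups. T cell markers summed to 3319 to 3488 CPM without Dox against 284 to 333 CPM with Dox, and 17 of 18 were called lower. B cell markers summed to 41.8 to 50.5 CPM without Dox against 2184 to 2348 CPM with Dox, and 12 of 12 were called higher. Cd72 had no count without Dox and 14, 42 and 30 with Dox. The labels' protocols name leukaemia cells for all 6 libraries and give no lineage. Dendritic cell markers summed to 10.3 to 17.8 and 112 to 127 CPM, with 6 of 6 tested called higher. Cd209a had 3, 0 and 0 counts without Dox and none with Dox. Neutrophil markers summed to 49.7 to 65.1 and 1985 to 2181 CPM, with 8 of 8 higher. Ly6g had no count without Dox and 503, 419 and 196 with Dox. Macrophage and monocyte markers summed to 459 to 556 and 599 to 840 CPM, with 3 higher and 3 lower of 10 tested. Of the NK cell list, 4 of 10 were tested, with Eomes and Nkg7 higher and Gzma lower, the last at 0 in each library with Dox. Klra8 was at 0 in all libraries and Klre1 in all but replicate 10, where it had 35 counts. Gzma made up most of the NK sum of 349 to 399 CPM without Dox. With Dox that sum was 18.8 to 34.8 CPM. Erythroid genes, mostly globins, summed to 94090 to 104200 and 133000 to 143000 CPM, with 4 higher and 2 lower of 8.

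Stromal marker lists were summed in the same way. Reticular stroma markers summed to 381 to 409 CPM without Dox against 339 to 517 CPM with Dox, ranges that overlapped. Col1a2 alone gave a mean of 221 of 390 CPM without Dox and 230 of 441 CPM with Dox. Of 11 tested, Pdgfra, Dcn and Nkx2-5 were called higher (3.98, 4.26 and 5.6-fold). Pdgfrb and Col1a1 were called lower (0.563 and 0.574-fold) and 6 were not called. Nkx2-5 passed the filter on low counts through the libraries with Dox. Lum had 2 counts in replicate 10 and none elsewhere. Endothelial markers summed to 80.5 to 105 and 133 to 207 CPM, with Kdr and Stab2 called higher of 9 tested. Emcn had 1 count in replicate 6 and none elsewhere. Markers of follicular dendritic cells, the stromal cells of B cell follicles, summed to 55.8 to 69.7 and 351 to 531 CPM. Of these, Mfge8, Enpp2 and Coch were called higher of 4 tested, Serpina1e had no count without Dox and 6, 25 and 11 with Dox, and Fdcsp was not analysed here. The part of any of these cell types in the differences of the chemokine and receptor genes was not tested.

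**Figure D3:**
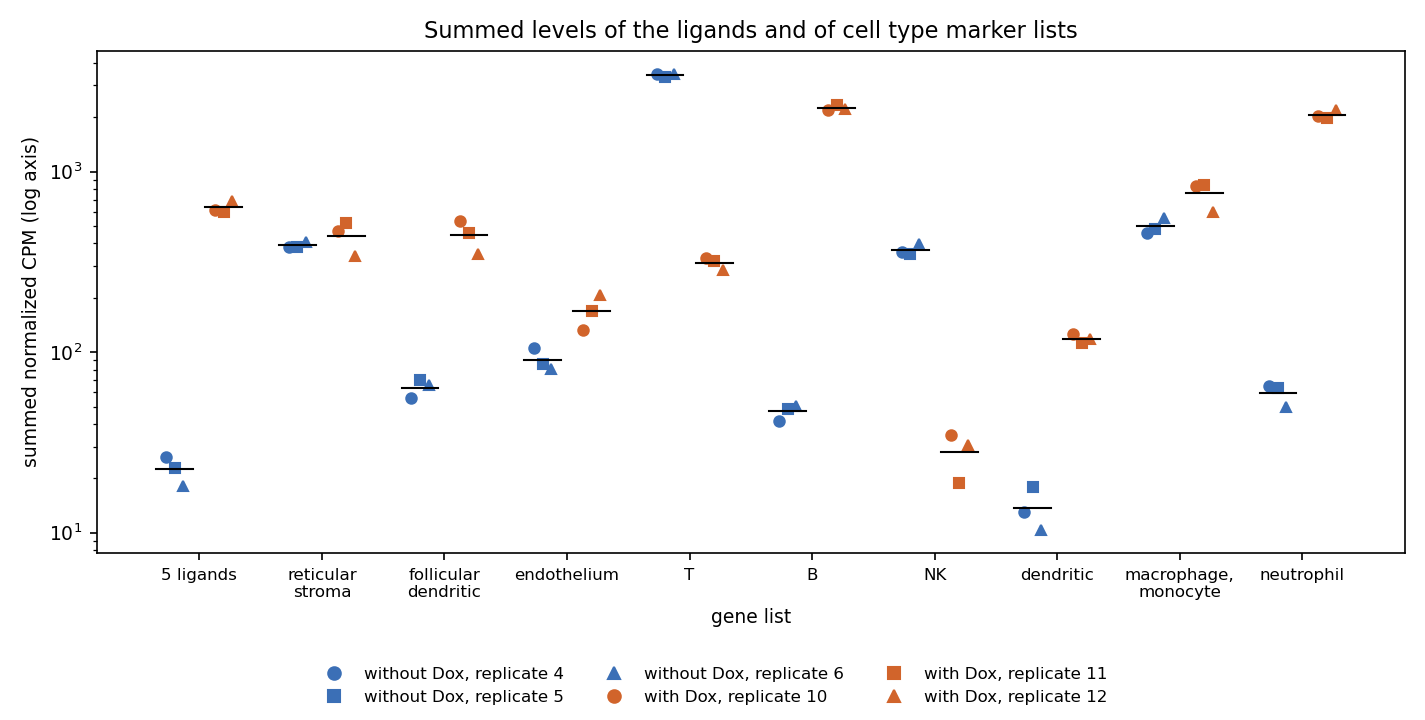
Summed normalized CPM (log axis) of the 5 ligands and of 9 marker lists in each library, with blue symbols without Dox, orange symbols with Dox and black bars at group means. The ligands went from 18.1 to 26.4 CPM without Dox to 599 to 688 CPM with Dox. The sum of the reticular stroma list, to which Col1a2 gave a large part, overlapped between the groups.

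Ratios to a marker list, chosen after the values were seen and given without a test, describe how some of the genes stood relative to lists of possible sources. Ccr9 per 1000 CPM of the T cell list was 17.2, 19.2 and 14.4 without Dox against 22.5, 21.3 and 72.9 with Dox. Ccr9 was thus higher relative to the T cell list in each library with Dox, most of all in replicate 12. Cxcr4 per 1000 CPM of the T cell list was 21.0, 19.7 and 22.9 without Dox against 81.4, 90.0 and 57.6 with Dox. Cxcr4 was thus higher relative to the summed list in each library with Dox, though its own level, at 0.331 of that without Dox, fell about as far as that of Cd4. Per 1000 CPM of the B cell list it went the other way, from 1350 to 1760 without Dox to 7.37 to 12.4 with Dox. Ccr7 per 1000 CPM of the B cell list was 218, 233 and 181 without Dox against 30.3, 23.8 and 11.2 with Dox, so that it rose less than B cell markers. Per 1000 CPM of the T cell list it went the other way, from 2.61 to 3.42 without Dox to 87.8 to 199 with Dox.

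Ccl19, Ccl21a, Cxcl12 and Cxcl13 were also set against stromal lists. Cxcl13 per 1000 CPM of the follicular dendritic list was 42.8, 32.0 and 43.9 without Dox against 207, 259 and 337 with Dox. Per 1000 CPM of the reticular stroma list, Ccl19 was 1.66 to 6.65 without Dox against 212 to 416 with Dox, Ccl21a 1.59 to 10.6 and 370 to 795, and Cxcl12 19.9 to 43.6 and 237 to 317. Cxcl13 on that scale was 5.85 to 7.05 and 228 to 349, and Cxcl12 per 1000 CPM of the endothelial list was 101 to 194 and 519 to 845. Ccl5 per 1000 CPM of the T cell list was 0.47 to 1.23 and 107 to 184, and of the NK list 4.59 to 10.6 and 1020 to 3010. Cxcr5 per 1000 CPM of the B cell list was 0 to 4.17, resting on 1 read, and 4.34 to 11.7. The groups did not overlap in any of these ratios. The denominators are short lists summed over genes of very different levels. Col1a2, in the reticular stroma list, was at 208 to 330 CPM in 5 libraries and at 98.4 CPM in replicate 12. In that replicate the ratios of Ccl19, Ccl21a, Cxcl12 and Cxcl13 to that list were highest. These ratios are not levels per cell.

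**Figure D4:**
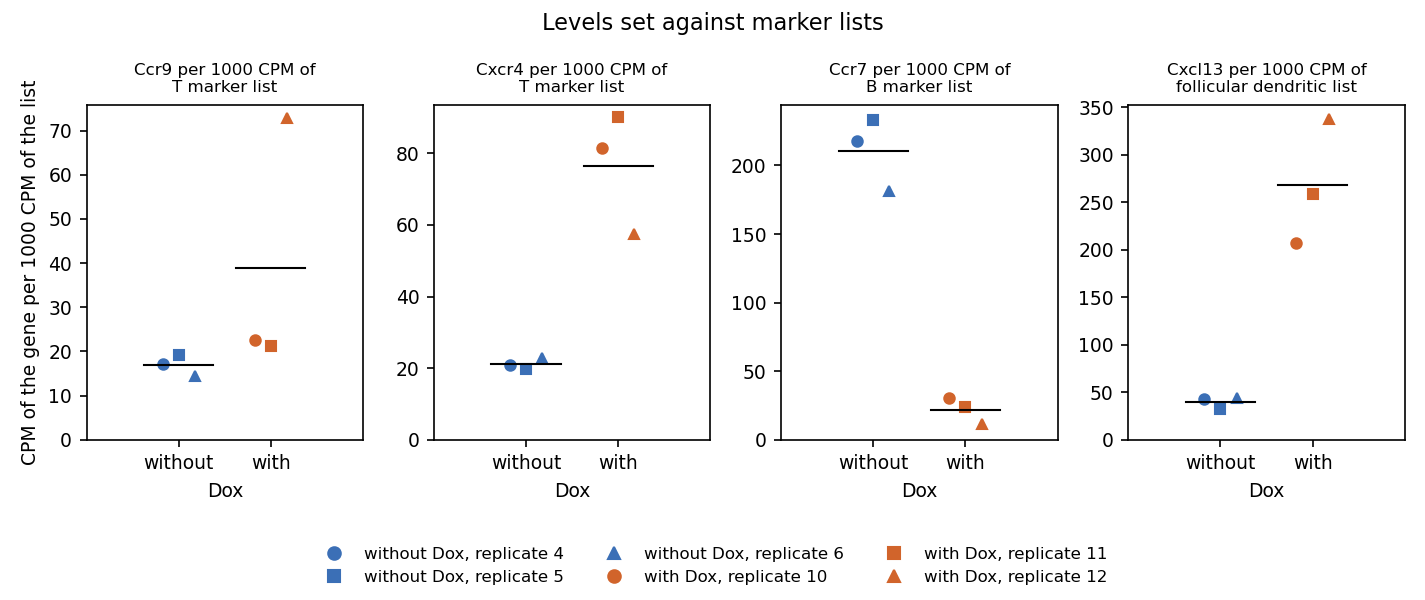
CPM of Ccr9, Cxcr4, Ccr7 and Cxcl13 per 1000 CPM of the named marker list in each library (linear axes from 0), with blue symbols without Dox, orange symbols with Dox and black bars at group means. Ccr9 in replicates 10 and 11, at 22.5 and 21.3, lay above the libraries without Dox and under replicate 12, and Ccr7 against the B cell list was lower in every library with Dox.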

How the data were processed

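Libraries were made with a QuantSeq forward kit, which reads the 3′ end of polyadenylated RNA, per the labels' protocols, so no correction for gene length was made. Raw counts per Entrez gene ID, 1 column per library, were deposited by the authors. STAR, featureCounts and build GRCm38 are named in the submitters' processing notes; annotation, strand setting and treatment of multi-mapping reads are not given in the sources used here. Of 40808 gene IDs, 39374 had a symbol in a RefSeq table (GRCm38.p6). The test was edgeR 4.0.16 (R 4.3.3): filterByExpr (minimum count 10, minimum total 15), TMM factors, quasi-likelihood F-test, no covariate, Benjamini-Hochberg adjustment over all 14110 tested genes, threshold 0.05. Each SE is the log2 fold change divided by the root of F. Alternatives were other scaling factors and filters, haemoglobin genes left out, DESeq2 1.42.0, limma-voom (limma 3.58.1), a threshold of 0.01 and each library left out; summed Ccl21 copies were added after seeing the data. Genes were named by rule: the 10 members, the tested genes of the ligand and receptor lists, listed genes that bind a member, and the 4 signalling genes with the smallest adjusted p in each direction. 1 tested gene of these lists is included in counts but not reported here. The members and lists were chosen with earlier results of these data known. Bcl9l, Ackr2, Ccr6, Cxcr6, Ccr1l1, the Ccl21 copies and the marker genes named one by one were chosen after their values were seen.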

Additional observations from a re-analysis of the deposited data

How the results depend on the processing

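No paired analysis was possible because no replicate number occurs in both groups. The 9 tested genes of the set kept their direction and an adjusted p under 0.05 in all 132 combinations of gene and alternative that gave a value, and 9 were called in each alternative but 1. Requiring 10 counts in every library removed Ccl19, Ccl21a and Cxcr5, which left 4 genes called higher in place of 7. At an adjusted p under 0.01, 2200 of all genes were called higher against 3324 at 0.05. Scaling by library size alone moved the median of all tested genes, on the log2 scale, from 0.07 to 0.38. Of 509 results for the other named genes, 9 changed sign, none of them in a gene called with all libraries. Ackr3 went from -0.046 to 0.25 (library size only), 0.050 (upper quartile), 0.071 (10 counts in every library), 0.035 (without replicate 5), 0.16 (without replicate 10) and 0.23 (without replicate 11), within a range of -0.81 to 0.23 over the libraries left out. Xcl1 went from 0.42 to -0.098 (limma-voom) and -0.19 (without replicate 11), with a range of -0.19 to 0.92, and Ccl9 from -0.36 to 0.24 (without replicate 6), with a range of -0.69 to 0.24. Another 2, both for Ppbp, lost their call (adjusted p 0.0572 without a filter and 0.0714 without replicate 5), and 7, some of them for Ccr4, gained one. The cause was not tested. Cxcr3, with counts near the floor of 3 in most libraries, did not pass the filter on low counts. Whether deeper libraries would change this was not tested.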
